A study of Mus musculus with 15 samples.

Results

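Messenger RNA of 10 genes of de novo lipogenesis, the making of fatty acids from sugar carbon, was followed in mouse perigonadal fat, the depot beside the gonads, after weight loss, in obesity and in leanness. The 10 genes were taken by name. They are the enzyme genes Acly, Acaca, Acacb, Fasn and Me1, the carrier gene Slc25a1, the transcription factor genes Srebf1 and Mlxipl, and Thrsp and Pnpla3. Each was matched through its Entrez ID to 1 of the 35794 IDs in the deposited table. All 10 were among the 15208 genes that passed the filter on low counts, with counts between 1740 and 94837 in any library used.

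In the fat cell, citrate leaves the mitochondrion through the carrier encoded by Slc25a1 and is split to acetyl-CoA by ATP citrate lyase (Acly). Acetyl-CoA carboxylases (Acaca, Acacb) turn acetyl-CoA into malonyl-CoA, and fatty acid synthase (Fasn) joins these units into palmitate with NADPH that malic enzyme (Me1) helps to supply. The genes of this route are driven by SREBP-1 (Srebf1), which answers to insulin, and by ChREBP (Mlxipl), which answers to glucose. The route is known to run low when the diet brings ready-made fat and to be induced by refeeding with carbohydrate.

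All samples were from C57BL/6 mice that the labels give as 14 weeks old. Weight loss mice had eaten a 60% high-fat diet from 8 weeks of age for 5 weeks and then chow for 1 week. Obese mice had eaten the same high-fat diet, and the labels do not spell out their food in the last week. Lean mice had eaten chow. The groups held 4 weight loss, 5 obese and 5 lean libraries, which the design text of the series calls independent samples, and p-values measure the spread between these samples. Totals ran from 13924770 to 33807887 counts, and weight loss replicate 5, with 230 counts in all, was left out.

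The fat markers were present in every library. The summed level of 10 adipocyte genes, led by Lpl, was 40720 to 48669 CPM after weight loss, 39601 to 47743 CPM in obese fat and 37891 to 52367 CPM in lean fat (CPM, counts per 1000000 counts, scaled by TMM factors). Some libraries also carried transcripts of the epididymis, which lies beside this depot. The summed level of 11 epididymis markers, led by Lcn8, was 0.79 to 62.9 CPM after weight loss. It was 8.97, 7731, 430.0, 2848 and 6088 CPM in obese replicates 1 to 5, and 3212, 19.2, 1.58, 544 and 6.74 CPM in lean replicates 1 to 5. Obese replicates 2, 4 and 5 and lean replicate 1 stood highest, and the counts of called genes are given with and without these 4 libraries. Macrophage markers, led by C1qa, summed to 600.3 to 1370 CPM after weight loss, 995 to 1551 CPM in obese fat and 441 to 984 CPM in lean fat, and the obese and lean ranges did not overlap. Brown or beige fat markers, led by Cox8b, summed to 18.4 to 62.8 CPM over all libraries. The most abundant genes of the other lists were Cldn5 (endothelial cells), Dcn (progenitors and fibroblasts), Krt19 (mesothelium), Cd79a (lymphocytes, 3.36 CPM on average), Alb (liver, 9.99 CPM) and Acta1 (skeletal muscle). No listed marker was at 0 in all libraries.

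Promoter sequence is shown for Mlxipl and Acacb, the members with the smallest p-values in obese against lean fat, and for Fasn, the member with the most counts, because lipogenic factors act through known short motifs. The windows are the 250 bases before each start in the RefSeq promoter table (GRCm38.p6, the assembly also named mm10), in which the 10 genes have 14 starts. They were searched on both strands for the E-box CACGTG, for TCACNCCAC as a sterol regulatory element, and for the CCAAT box (reverse, ATTGG). Mlxipl has a pair of starts 17.0 kb apart, and the upstream one is that of the first exon known in mouse for the ChREBP-beta isoform. The counts are per gene and do not separate isoforms. The Mlxipl windows are chr5:135089640-135089889 (upstream start) and chr5:135106641-135106890 (downstream start), both on the plus strand. The Acacb window is chr5:114165268-114165517 on the plus strand, and the Fasn window is chr11:120824548-120824797 on the minus strand. The Acacb, Fasn and downstream Mlxipl windows lie inside the spans that RefSeq gives these genes. Each is written 5′ to 3′ toward the start, and capitals mark motif matches.
Mlxipl upstream start: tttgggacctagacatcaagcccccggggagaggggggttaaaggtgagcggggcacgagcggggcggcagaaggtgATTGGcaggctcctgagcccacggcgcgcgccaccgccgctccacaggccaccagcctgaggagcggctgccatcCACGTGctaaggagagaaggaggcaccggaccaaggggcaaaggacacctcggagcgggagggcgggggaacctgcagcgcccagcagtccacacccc
Mlxipl downstream start: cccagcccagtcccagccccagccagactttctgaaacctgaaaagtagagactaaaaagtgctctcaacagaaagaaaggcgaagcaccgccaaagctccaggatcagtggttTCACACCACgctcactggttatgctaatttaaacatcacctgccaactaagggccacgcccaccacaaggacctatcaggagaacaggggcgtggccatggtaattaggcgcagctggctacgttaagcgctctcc
Acacb: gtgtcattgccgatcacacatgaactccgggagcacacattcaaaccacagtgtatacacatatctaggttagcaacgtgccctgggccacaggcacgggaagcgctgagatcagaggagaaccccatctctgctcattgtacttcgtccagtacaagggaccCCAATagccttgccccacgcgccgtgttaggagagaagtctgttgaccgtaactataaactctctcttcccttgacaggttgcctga
Fasn: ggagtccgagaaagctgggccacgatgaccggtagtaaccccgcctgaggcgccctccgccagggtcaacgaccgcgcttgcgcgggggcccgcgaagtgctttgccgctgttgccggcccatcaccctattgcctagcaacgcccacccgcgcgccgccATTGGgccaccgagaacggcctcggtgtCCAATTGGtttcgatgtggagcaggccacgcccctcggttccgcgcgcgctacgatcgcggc

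The upstream Mlxipl window held CACGTG 98 bases before the start and a reverse CCAAT box at 173 bases. The downstream Mlxipl window held TCACACCAC, a match to the sterol regulatory element, at 136 bases. The Acacb window held 1 CCAAT box, at 87 bases. The Fasn window held 3, a reverse one at 90 bases, a forward one at 62 bases and a reverse one at 59 bases that overlaps it. Over all 14 windows, CACGTG was in 2 (Mlxipl and Slc25a1), TCACNCCAC in 1 and CCAAT in 9 windows of 8 genes. The Acaca and Acly windows held none of these letters. The only Acaca window, chr11:84195188-84195437 on the plus strand, lies inside the span that RefSeq gives the gene. The bases before the first position of that span were not searched. Among 32851 windows of this length in the table, 6.02% held CACGTG, 1.05% TCACNCCAC and 33.8% CCAAT. A match describes the letters only, and binding was not measured.

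Obese against lean fat asks what high-fat feeding changed. Transcripts of both acetyl-CoA carboxylases fell, Acaca 2.64-fold and Acacb 2.68-fold, and so did those of both transcription factors, Mlxipl 2.2-fold and Srebf1 1.63-fold. The other 6 genes also had negative fold changes, from Fasn at a log2 value of -1.04 to Me1 at -0.09, but did not pass the test. In all, 4 of the 10 genes passed, each of them lower in obese fat, where 9.71% of all genes tested passed in either direction and 3.85% as lower. The median log2 fold change of the 10 genes was -0.67, against -0.02 over all genes tested. Every obese library lay below every lean library for 3 of the 10 genes (Acaca, Fasn and Mlxipl), as for 4.31% of all genes. In bulk tissue, fewer fat cells and less transcript per fat cell cannot be told apart.

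Acaca (Entrez ID 107476, chromosome 11, 84129635 to 84401651) encodes the cytosolic carboxylase whose malonyl-CoA feeds fatty acid synthase. Its level was 395, 205, 261, 216 and 282 CPM in obese replicates 1 to 5, against 650.2, 1123, 728, 671 and 412 CPM in lean replicates 1 to 5. The highest obese library lay just under the lowest lean library, and lean replicate 2 stood above all others. The log2 fold change was -1.40 ± 0.28 (SE), with a Benjamini-Hochberg adjusted p of 0.00752. Acacb (Entrez ID 100705, chromosome 5, 114146321 to 114250761) encodes the carboxylase at the outer mitochondrial membrane, whose malonyl-CoA restrains entry of fatty acids into the mitochondrion. Its level was 175, 125, 144, 122 and 299.9 CPM in obese fat, against 271, 678, 492, 425 and 457 CPM in lean fat. The groups overlapped through obese replicate 5, the highest of its group, and lean replicate 1, the lowest of its own. The log2 fold change of Acacb was -1.42 ± 0.27 (adjusted p = 0.00446). The groups of Acaca and Acacb averaged 272 ± 75.7 and 173 ± 73.9 CPM in obese fat, against 717 ± 257 and 464 ± 146 CPM in lean fat (SD, n = 5 each).

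Mlxipl (Entrez ID 58805, chromosome 5, 135089890 to 135139768), which encodes ChREBP, stood at 124, 94.4, 94.4, 99.1 and 124.5 CPM in obese fat, against 203, 258.5, 150.4, 243 and 324 CPM in lean fat. The obese libraries lay close together, all under the lowest lean library, replicate 3. The log2 fold change was -1.14 ± 0.19 (adjusted p = 0.00187), the smallest p of the 10 genes. Srebf1 (Entrez ID 20787, chromosome 11, 60199084 to 60224186), which encodes SREBP-1a and SREBP-1c, stood at 234, 234, 211, 212.5 and 444 CPM in obese fat, against 354, 569.5, 384, 414 and 452.5 CPM in lean fat. Obese replicate 5 lay among the lean libraries, and the other obese libraries lay below all of them. The log2 fold change was -0.70 ± 0.20, with an adjusted p of 0.0406 that lay close to the threshold of 0.05. It rose above 0.05 (0.0544 to 0.102) when obese replicate 1, 2, 3 or 4, weight loss replicate 2, or lean replicate 2, 4 or 5 was left out alone.

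Fasn (Entrez ID 14104, chromosome 11, 120805958 to 120825166), the synthase itself, had the highest CPM of the 10 genes in every library. Its level was 2696.5, 1391, 2229.8, 1646 and 2820.4 CPM in obese fat, against 3648, 6728, 4044, 4971 and 2820.6 CPM in lean fat. The groups touched at obese replicate 5 and lean replicate 5 and did not overlap. The log2 fold change was -1.04 ± 0.38 (adjusted p = 0.0949), and of the alternatives run 1 called it, the fit without the weight loss group (adjusted p = 0.0226). Slc25a1, the mitochondrial citrate carrier, had a log2 fold change of -0.63 ± 0.26 (adjusted p = 0.144), with overlapping levels of 262 to 561 CPM in obese fat and 416 to 799 CPM in lean fat. Pnpla3, a lipid droplet protein gene known as a target of both factors, had -0.38 ± 0.26, and Thrsp, which encodes the thyroid hormone responsive protein Spot 14, had -0.25 ± 0.22. The smallest differences were those of Acly, at -0.185 ± 0.20, and Me1, at -0.09 ± 0.20. Acly and Me1 levels were 285 to 357 and 435 to 612 CPM in obese fat, inside the wider lean ranges of 192 to 491 and 321 to 728 CPM.

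**Figure D1:**
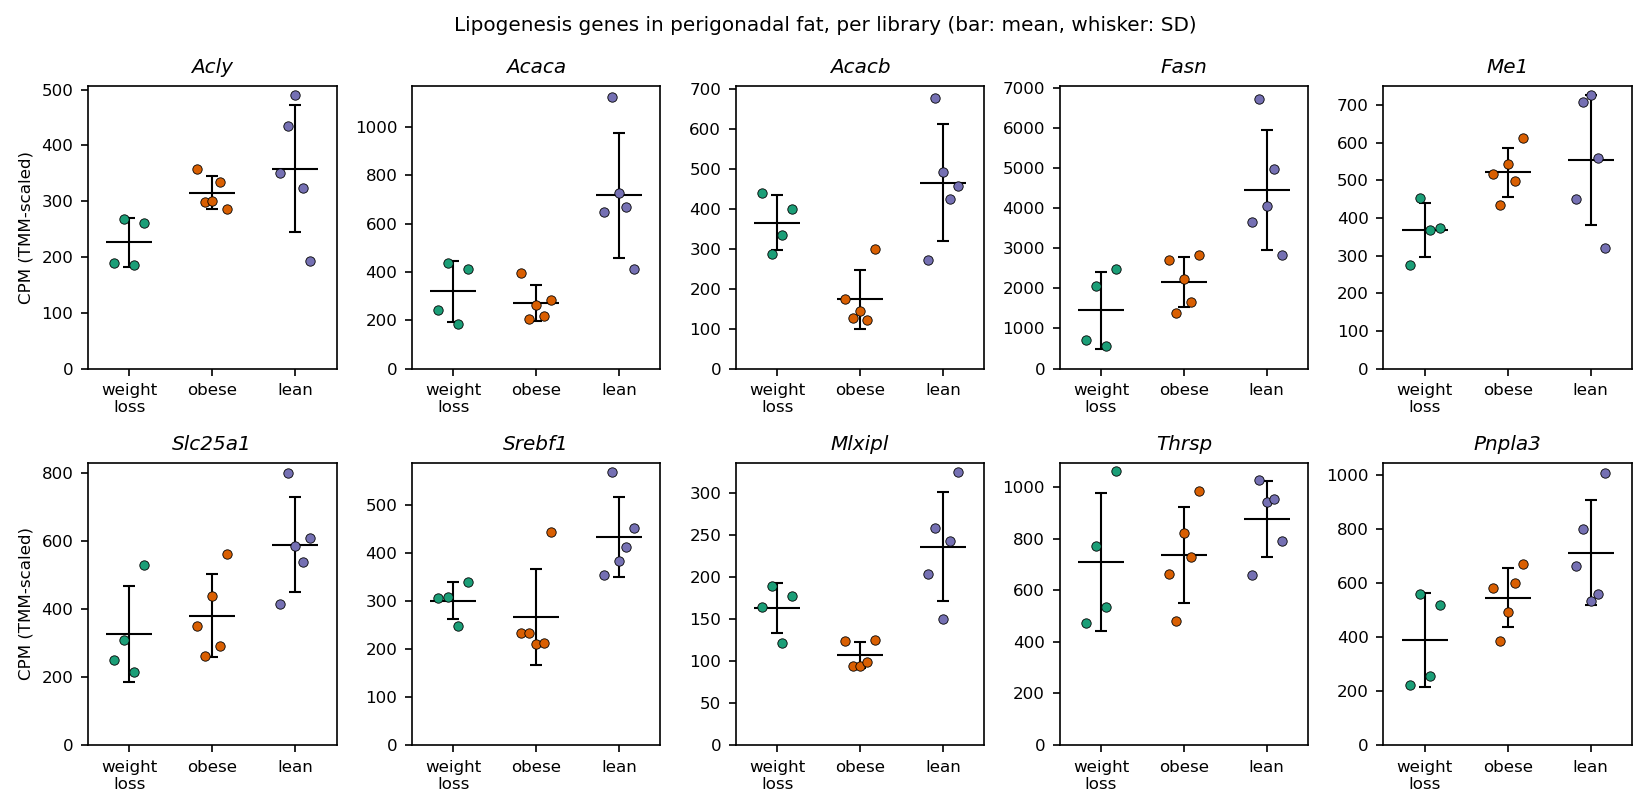
Level of each of the 10 genes in each library, in CPM scaled by TMM factors, by group (4 weight loss, 5 obese and 5 lean libraries; points are libraries, bars group means, whiskers SD). The obese points of Acaca and Mlxipl lie below all lean points, those of Acly and Me1 lie inside the lean range, and 1 obese point of Srebf1, at 444 CPM, lies among the lean ones.

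These counts depended on which libraries were used. Without obese replicates 2, 4 and 5 and lean replicate 1, the libraries highest in epididymis markers, 2 obese libraries remained and 2 of the 10 genes passed, Acacb (log2 fold change -1.685 ± 0.25, adjusted p = 0.0122) and Srebf1 (-1.03 ± 0.20, adjusted p = 0.0413). In that fit 0.811% of all genes passed. Acaca then stood at -1.16 ± 0.43 (adjusted p = 0.261) and Mlxipl at -1.16 ± 0.29 (adjusted p = 0.101). With the epididymis level as a covariate 3 passed, without Srebf1 (adjusted p = 0.0727), and 4.42% of all genes. With the mean log2 level of the adipocyte markers as a covariate, Acacb (-0.96 ± 0.19, adjusted p = 0.0139) and Mlxipl (-0.99 ± 0.21, adjusted p = 0.0181) passed, and 3.54% of all genes. Acaca (-1.12 ± 0.30, adjusted p = 0.0572) and Srebf1 (-0.41 ± 0.16, adjusted p = 0.183) then did not pass, and Fasn stood at -0.60 ± 0.36 (adjusted p = 0.419). Of the 10 macrophage markers 7 rose in obese fat. Of the 10 adipocyte markers 1, Pparg, fell. That list held 8 negative and 2 positive log2 fold changes, with a median of -0.28 and 5 genes at an unadjusted p under 0.05. Of the 7 progenitor and fibroblast markers 3 rose (Pi16, Ly6a and Cd34), with a median log2 fold change of 0.59 over the list, and of the 6 mesothelial markers 1 rose (Msln). The part of these cell types in the result was not tested.

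Around the 10 genes, the list of glucose and insulin input genes held the most calls. Of its 8 genes 5 fell in obese fat and none rose, with a median log2 fold change of -0.62. They were Pik3r1, a regulatory subunit of the insulin-activated lipid kinase (log2 fold change -1.50 ± 0.22, adjusted p = 0.00078), Slc2a4, the insulin-responsive glucose transporter (-0.735 ± 0.13, adjusted p = 0.00348), Irs1, an insulin receptor substrate (-1.16 ± 0.21, adjusted p = 0.00374), Hk2 and Insr. Slc2a4 averaged 204 ± 19.2 CPM in obese libraries against 339.6 ± 54.4 CPM in lean ones (SD, n = 5 each), with no overlap. Of 14 tested desaturation and elongation genes 3 rose and 1 fell. The desaturase genes Scd1 (0.585 ± 0.15, adjusted p = 0.0257) and Scd2 (1.15 ± 0.26, adjusted p = 0.0139) and Fads3 (0.94 ± 0.12, adjusted p = 0.000395) rose, and Fads1, the delta-5 desaturase, fell by 0.73 on the log2 scale (adjusted p = 0.0407). How reads shared by the similar Scd genes were counted is not given in the sources used here. The levels of Scd1, which acts on the products of the synthase, were 16425 ± 2438 CPM in obese fat and 10948 ± 2042 CPM in lean fat.

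Other lists had at most 1 call. Of 13 partners of SREBP and ChREBP, Insig1, which holds SREBP in the endoplasmic reticulum, rose (log2 fold change 0.49 ± 0.12, adjusted p = 0.0183). Of 8 genes of NADPH supply and the pentose phosphate pathway, Tkt, the transketolase of that pathway, fell (-0.80 ± 0.22, adjusted p = 0.0313). G6pdx, the first enzyme of the pathway, had 0.32 ± 0.11 (adjusted p = 0.086). Of 11 genes that control the carboxylases, Prkag2, a subunit of the kinase AMPK, fell (-0.41 ± 0.12, adjusted p = 0.0364). Mid1ip1, a relative of Thrsp that activates the carboxylases, had 0.145 ± 0.28. Over all 8 lists, 4 of 79 genes rose and 8 fell, where 9.71% of all genes passed in either direction. DESeq2 gave 4 and 12, with 14.9% of all genes, and limma-voom 4 and 7, with 9.42%. With the adipocyte marker covariate, which called 3.54% of all genes, 1 rose (Fads3) and 4 fell (Slc2a4, Insr, Irs1 and Pik3r1). The calls of Scd1, Scd2, Insig1, Tkt, Fads1, Prkag2 and Hk2 were then lost. Without the 4 libraries highest in epididymis markers none rose and 1, Pik3r1, fell, with 0.811% of all genes called.

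**Figure D2:**
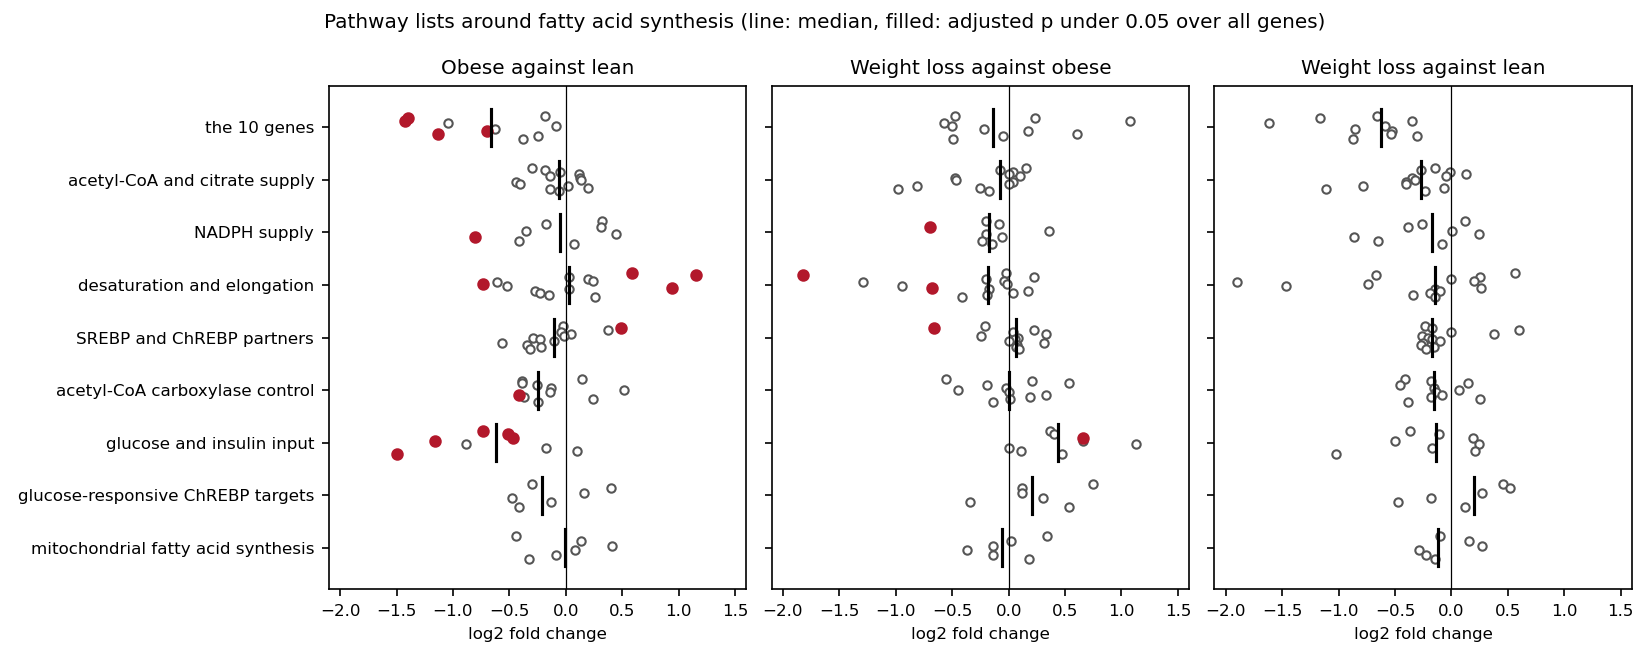
Log2 fold change of each tested gene of the 10 and of 8 lists around fatty acid synthesis, in the 3 comparisons (points are genes, filled where the adjusted p over all genes was under 0.05, lines are medians). In obese against lean fat the 10 genes and the glucose and insulin list have medians of -0.67 and -0.62, and both medians stand apart from those of the other lists, which lie between -0.25 and 0.03.

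Weight loss against obese fat sets mice 1 week back on chow against obese mice, whose food in the last week the labels do not spell out. None of the 10 genes passed, where 1.62% of all genes tested passed. Their fold changes lay on both sides of 0. The largest positive fold change was that of Acacb (2.1-fold), followed by Mlxipl (1.52-fold), and the largest negative ones were those of Fasn, Me1, Pnpla3 and Acly. The 10 genes held 4 positive and 6 negative fold changes, with a median log2 value of -0.14, against 0.02 over all genes. At an unadjusted p under 0.05 there were 4 of the 10 (Acacb, Mlxipl, Acly and Me1), and 2174 of all 15208 genes. Acacb was called by DESeq2, which called 4.54% of all genes, and by limma-voom, which called 2.03%. With sample quality weights limma-voom called Acacb and Mlxipl, and 3.5% of all genes. Without the 4 libraries highest in epididymis markers edgeR called none of the 10 and 0.13% of all genes. These comparisons share the obese libraries with the first one, so the values of both are given side by side and not set against each other.

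Acacb stood at 440.2, 286, 333 and 398 CPM in weight loss replicates 1 to 4, against 122 to 299.9 CPM in obese fat. All weight loss libraries except replicate 2 lay above every obese library, and replicate 2 lay under obese replicate 5 alone. The log2 fold change was 1.07 ± 0.28 (adjusted p = 0.0685). It was called without obese replicate 5 (log2 fold change 1.356, adjusted p = 0.0148) and without lean replicate 1 (adjusted p = 0.0445). Mlxipl stood at 164, 189, 121 and 178 CPM, against 94.4 to 124.5 CPM in obese fat, with a log2 fold change of 0.60 ± 0.19 (adjusted p = 0.149). Weight loss replicate 3 was the only one of the 4 inside the obese range. Srebf1 stood at 308, 308, 248 and 339.9 CPM, above 4 of the 5 obese libraries and below obese replicate 5, with a log2 fold change of 0.17 ± 0.21 (adjusted p = 0.795). Acaca, at 244, 438.5, 183.5 and 411 CPM, spanned the obese range on both sides (0.23 ± 0.30, adjusted p = 0.801).

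Acly, whose product is cytosolic acetyl-CoA, was the gene with no overlap. Its level was 189.9, 268, 186 and 261 CPM after weight loss, against 357, 299, 300.4, 334 and 285 CPM in obese fat. All weight loss libraries lay below all obese ones, as for 3.27% of all genes, and the log2 fold change was -0.48 ± 0.21 (adjusted p = 0.326). Me1 ran from 276 to 453 CPM after weight loss and from 435 to 612 CPM in obese fat, with a log2 fold change of -0.50 ± 0.21 (adjusted p = 0.293). Fasn stood at 699, 2060.2, 566 and 2474 CPM after weight loss, against 1391 to 2820.4 CPM in obese fat. Replicates 1 and 3 lay under every obese library and replicates 2 and 4 among them, and the log2 fold change was -0.57 ± 0.40 (adjusted p = 0.579). Pnpla3 had -0.49 ± 0.28, Slc25a1 -0.22 ± 0.28 and Thrsp -0.05 ± 0.24. A p above the threshold does not show that these levels were the same.

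In the lists, 1 of 79 genes rose after weight loss and 4 fell, where 1.62% of all genes passed. DESeq2 gave 2 and 6, with 4.54% of all genes. Insr, the insulin receptor gene, rose (log2 fold change 0.66 ± 0.11, adjusted p = 0.00592), with a mean of 233 ± 24.4 CPM after weight loss (SD, n = 4) against 147 ± 16.8 CPM in obese fat (SD, n = 5). All 8 glucose and insulin input genes had positive log2 fold changes, as had 8043 of all 15208 genes tested. The median of the 8 was 0.44, the smallest was 0 after rounding, and only Insr passed. Scd2 fell (-1.82 ± 0.29, adjusted p = 0.0042), as did Fads3 (-0.68 ± 0.13, adjusted p = 0.0158), Insig1 (-0.66 ± 0.13, adjusted p = 0.0143) and Pgd, a NADPH-making enzyme of the pentose phosphate pathway (-0.70 ± 0.16, adjusted p = 0.0435). Elovl6, which lengthens palmitate, averaged 25.3 ± 14.4 CPM after weight loss against 61.9 ± 17.9 CPM in obese fat, without overlap. It did not pass by edgeR (-1.29 ± 0.41, adjusted p = 0.148) and was called lower by DESeq2. Acss2, which makes acetyl-CoA from acetate, had -0.81 ± 0.30 (adjusted p = 0.221). Scd1 had -0.03 ± 0.16 and Slc2a4 0.37 ± 0.14, neither past the test. Without the 4 libraries highest in epididymis markers none of the 79 passed, where 0.13% of all genes did, with 6 at an unadjusted p under 0.05.

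**Figure D3:**
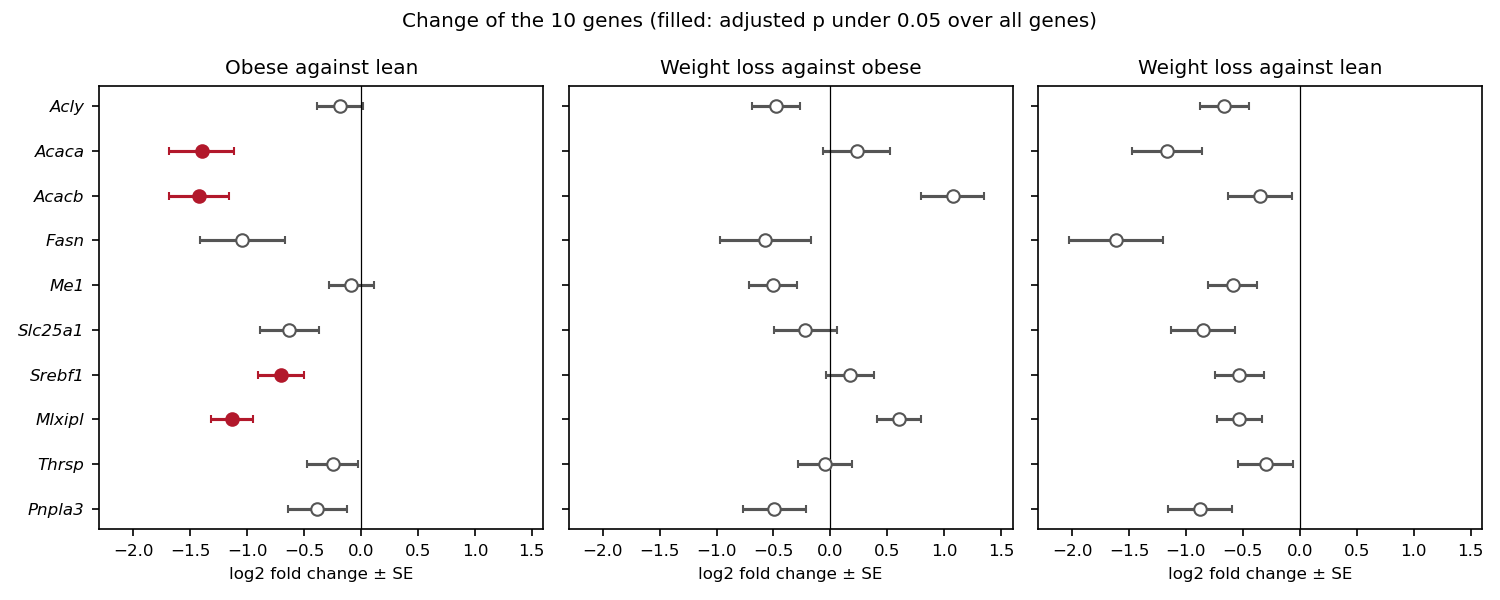
Log2 fold change ± SE of the 10 genes in each comparison (filled where the adjusted p over all genes was under 0.05). All 10 points are below 0 in obese against lean and in weight loss against lean fat, while in weight loss against obese fat they lie between -0.57 and 1.07.

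Weight loss against lean fat asks how far the depot differed from lean fat after the week on chow. All 10 genes had lower mean levels after weight loss than in lean fat, but none passed, in a comparison in which 0.0329% of all genes (5 of 15208) passed. The largest fold changes were those of Fasn (3.06-fold lower) and Acaca (2.25-fold lower). The median log2 fold change of the 10 genes was -0.63, against 0 over all genes. At an unadjusted p under 0.05 there were 8 of the 10, and 1739 of all 15208 genes. DESeq2 called 2, Acaca and Fasn, with 1.6% of all genes, and limma-voom none, with 0.00658%. Without the 4 libraries highest in epididymis markers none of the 10 was called by edgeR, nor was any other gene. Every weight loss library lay below every lean library for 2 genes, Fasn and Srebf1, as for 0.704% of all genes. The lean libraries are those of the first comparison.

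Fasn averaged 1450.0 ± 960.0 CPM after weight loss (SD, n = 4) and 4442 ± 1494 CPM in lean fat (SD, n = 5), a log2 fold change of -1.62 ± 0.41 (adjusted p = 0.151). The highest weight loss library, replicate 4, lay below the lowest lean library. Without that replicate the adjusted p of Fasn was 0.0487, and 0.843% of all genes passed, against 0.0329% with it. Acaca had -1.17 ± 0.30 (adjusted p = 0.154), and weight loss replicate 2, at 438.5 CPM, lay above lean replicate 5 at 412 CPM. Slc25a1 (-0.85 ± 0.28), Pnpla3 (-0.88 ± 0.28), Acly (-0.66 ± 0.22) and Me1 (-0.59 ± 0.21) had adjusted p-values from 0.262 to 0.313. For these 4 genes the groups overlapped. Both factor genes had a log2 fold change of -0.53, and the weight loss libraries of Srebf1, up to 339.9 CPM, lay below the lean minimum of 354 CPM. The smallest differences were those of Acacb (-0.35 ± 0.28) and Thrsp (-0.30 ± 0.24). Of the marker lists, all 10 macrophage and all 7 progenitor and fibroblast genes had positive log2 fold changes, with medians of 0.76 and 0.48, none of them called by edgeR (8 and 5 at an unadjusted p under 0.05). The 10 adipocyte markers held 7 negative and 3 positive log2 fold changes, with a median of -0.2 and none called. The part of these lists in the result was not tested. None of the 79 list genes passed by edgeR or limma-voom, with 19 at an unadjusted p under 0.05 by edgeR. DESeq2, which called 1.6% of all genes, called 5, among them Elovl6 and Tkt lower. Without the 4 libraries highest in epididymis markers none of the 79 passed, with 16 at an unadjusted p under 0.05. By edgeR, Elovl6 had the largest fold change of the 79 (log2 fold change -1.90 ± 0.42, adjusted p = 0.122).

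The 10 genes together held a varying share of each library. Their summed level was 3266, 5643, 3010 and 6546 CPM in weight loss replicates 1 to 4. It was 6097, 3912, 5535, 4747 and 7083 CPM in obese replicates 1 to 5, and 7666, 13125, 9076, 9657 and 7385 CPM in lean replicates 1 to 5. The lean libraries all lay above the obese and the weight loss libraries, and Fasn made up the largest part of each sum. Within groups, obese replicate 5 was the highest obese library for 8 genes, as for 22.62% of all genes. Obese replicate 2 was the lowest for 7, as for 13.89% of all genes. Lean replicate 2 was the highest lean library for 6 genes, as for 18.32% of all genes. Obese replicates 2 and 5 were also the libraries highest in epididymis markers, and the part of that tissue in this order was not tested.

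The weight loss group split within itself, a pattern seen after the values were known. Replicates 1 and 3 both lay below replicates 2 and 4 for 9 of the 10 genes, all but Acacb, as for 21.78% of all genes tested (3313 of 15208). For Srebf1 the gap was narrow, 307.7 CPM in replicate 1 against 308.3 CPM in replicate 2. The same order held for 9 of 13 acetyl-CoA and citrate genes, 4 of 6 glucose-responsive ChREBP targets and 4 of 6 mitochondrial fatty acid synthesis genes. It held for 4 of 8 genes of NADPH supply and the pentose phosphate pathway and 7 of 14 desaturation and elongation genes. Of the glucose and insulin input genes 2 of 8 had it, of the SREBP and ChREBP partners 2 of 13, and of the carboxylase control genes 1 of 11. It held for 0 of 10 macrophage, 0 of 6 endothelial and 0 of 7 progenitor and fibroblast markers. Summed macrophage markers were 1370, 600.3, 1297 and 1024 CPM in weight loss replicates 1 to 4, endothelial markers 1519, 903, 1246 and 713 CPM, and adipocyte markers 40720, 44871, 41933 and 48669 CPM. Replicates 1 and 3 had the higher macrophage and endothelial sums and the lower adipocyte sums. Gene by gene, the order of the 10 members held for 2 of 10 adipocyte markers and for 4 of 4 tested liver markers, and the mean log2 CPM of the adipocyte markers was 11.21, 11.24, 11.17 and 11.35 in replicates 1 to 4. The part of cell content in the split was not tested. Fasn had a coefficient of variation of 66.2% after weight loss, 29.2% in obese fat and 33.6% in lean fat. The median over 2066 genes with a mean of at least 100 CPM was 16.67%, 12.54% and 15.27% in the same order of groups.

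**Figure D4:**
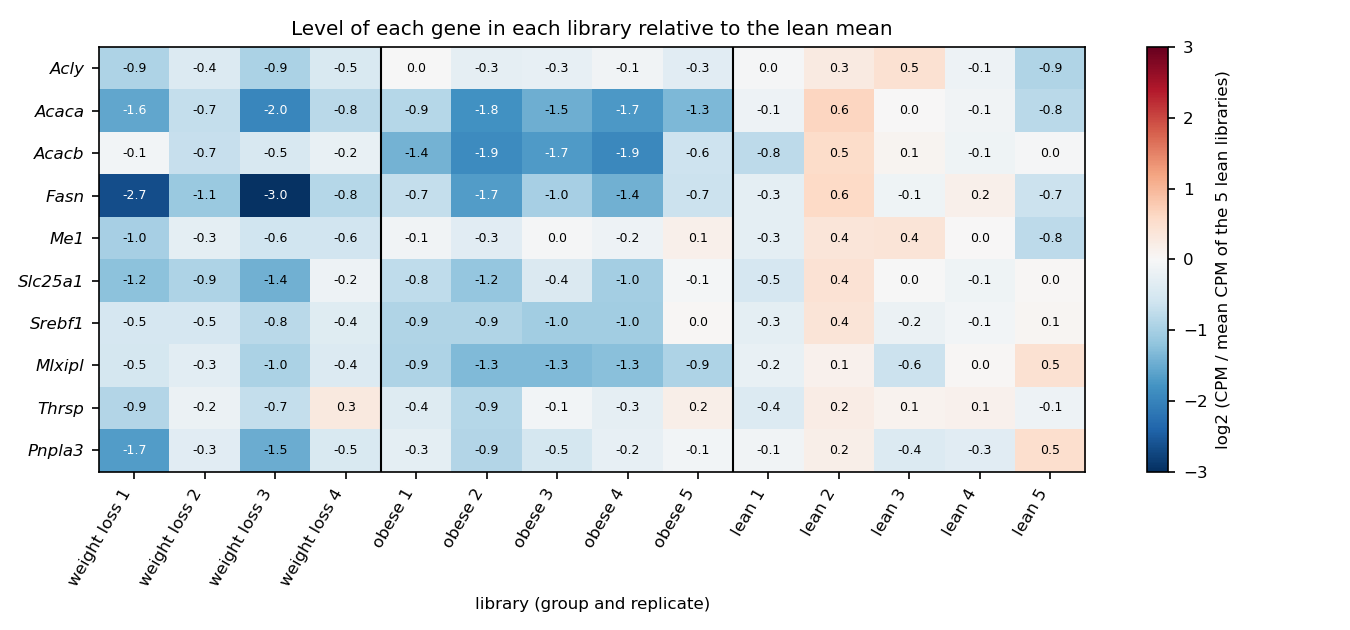
Level of each gene (rows) in each library (columns) as log2 of its CPM over the mean CPM of the 5 lean libraries. Weight loss replicates 1 and 3 have lower values than replicates 2 and 4 in 9 of the 10 rows, all but Acacb, and obese replicate 5 has the highest obese value in 8 rows.

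The levels of both carboxylases were also set against each other within each library. The ratio of Acacb to Acaca CPM was 1.81, 0.652, 1.82 and 0.969 in weight loss replicates 1 to 4. It was 0.443, 0.613, 0.55, 0.564 and 1.06 in obese replicates 1 to 5, and 0.417, 0.603, 0.676, 0.633 and 1.11 in lean replicates 1 to 5. Weight loss replicates 1 and 3 lay above every other library, and the groups overlapped. The log2 ratio differed by 0.96 between weight loss and obese fat (exact two-sided permutation test, p = 0.0635 over 126 arrangements). Between weight loss and lean fat it differed by 0.88 (exact permutation p = 0.0873), and between obese and lean fat by -0.08 (exact permutation p = 0.738 over 252 arrangements). Adjusted over these 3 comparisons the p-values were 0.131, 0.131 and 0.738. The ratio was chosen after the levels of both genes were known.

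**Figure D5:**
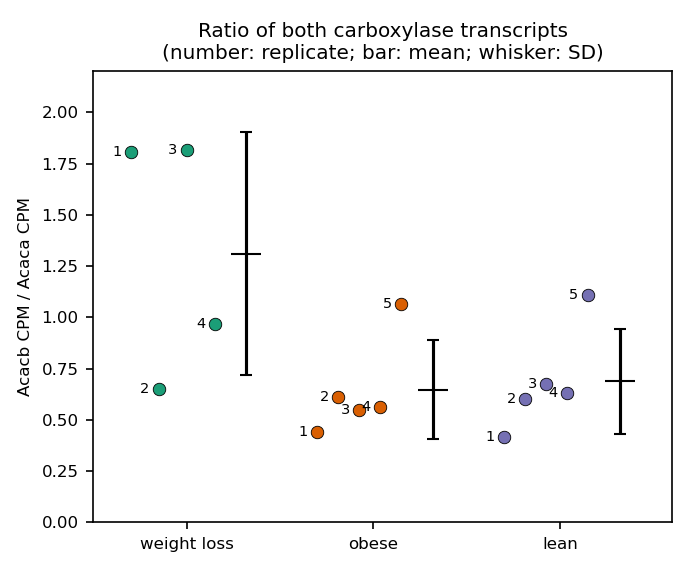
Ratio of Acacb CPM to Acaca CPM in each library, by group (points are libraries with their replicate number, bars means, whiskers SD; the scale is linear). Weight loss replicates 1 and 3 stand at 1.81 and 1.82, above all obese and lean libraries, and replicates 2 and 4 stand at 0.652 and 0.969, inside the range of the other groups.

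Per kilobase of transcript, the order of the 10 genes was much alike in all groups. Thrsp had the highest level, at 557 ± 211 CPM per kb after weight loss (SD, n = 4), 577 ± 146 in obese fat and 686 ± 115 in lean fat (SD, n = 5 each), and Pnpla3 came next. Slc25a1, Fasn and Me1 followed, with Fasn in the third place in lean fat (442 ± 149 CPM per kb) and in the fourth after weight loss (144 ± 95.5) and in obese fat (215 ± 62.6). The lowest place was held by Acaca after weight loss (33.5 ± 13.1 CPM per kb) and by Acacb in obese (19.7 ± 8.4) and lean fat (52.9 ± 16.6). Most neighbours in the order had overlapping library ranges. Me1 lay above the next gene without overlap after weight loss and in obese fat, Srebf1 above Mlxipl in obese fat, and Slc25a1 above Me1 in lean fat. Lengths were those of the longest principal transcript in GENCODE, so levels per kb depend on that choice.

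Across the 14 libraries, Fasn, Slc25a1 and Acaca tracked the mean of the other 9 members most closely (Pearson r of 0.921, 0.914 and 0.892), and Acacb and Acly least (0.51 and 0.515). Outside the 10, the genes most alike to their mean pattern among 9666 genes compared were Tkt (r = 0.983), Aldh1l1, the gene of a folate enzyme that makes NADPH (0.965), and Cs, citrate synthase (0.94). After them came 2310061I04Rik (0.926), Angptl8, a hormone gene induced by feeding (0.923), Ndufa10 (0.913), Ppp1r1a (0.91) and Atp5b (0.902). These values describe 14 libraries that share group differences and cell content, and they carry no test. Tkt averaged 538 ± 176 CPM after weight loss, 562 ± 108.5 CPM in obese fat and 979 ± 268 CPM in lean fat.

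The remaining members lie on GRCm38 as follows. Acly (Entrez ID 104112) spans 100476352 to 100528000 on chromosome 11, Me1 (17436) spans 86581363 to 86695914 on chromosome 9 and Slc25a1 (13358) spans 17925211 to 17928219 on chromosome 16. Thrsp (21835) spans 97412933 to 97417550 on chromosome 7 and Pnpla3 (116939) spans 84167776 to 84189521 on chromosome 15. All 10 are annotated as protein-coding.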

How the data were processed

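The table the authors deposited lists expected counts for each Entrez ID without normalization, and 34.8% of its values were fractional. The submitters' processing notes name mm10 as the build. For the aligner, counter, annotation and treatment of shared reads, the entry is "not given in the sources used here". RNA was purified over a CsCl gradient and poly(A)+ selected, per the labels' protocols.

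Expected counts were rounded to whole numbers. Libraries with under 1000000 counts were left out, which removed weight loss replicate 5. The filter was filterByExpr with the groups (edgeR 4.0.16 in R 4.3.3), the scaling TMM, and a single quasi-likelihood fit (estimateDisp, glmQLFit, glmQLFTest) held all 3 groups. Two-sided p-values of the 15208 genes were adjusted by Benjamini-Hochberg, and an adjusted p under 0.05 is a call. SE is the size of a log2 fold change divided by the root of its F value. The script was tested on simulated data. The Acacb to Acaca ratio had an exact permutation test. Likeness is Pearson's r of log2 CPM (prior count 2, mean CPM at least 10).

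The members and gene lists were chosen with earlier results of these data known. The genes named were the 10 members, up to 3 called genes per list and comparison with the smallest p, and Scd1, Elovl6, Acss2, G6pdx, Mid1ip1, Insig1 and Slc2a4. They also include the most abundant gene of each marker list and the 8 most alike genes. Fads1, Hk2, Pparg, Pi16, Ly6a, Cd34 and Msln were named after their values were seen. Pc was matched as Pcx. Symbols came from RefSeq for 32919 IDs and from GENCODE for 24.

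Alternatives were scaling by upper quartile, by DESeq2 size factors or by library size only, other filters, DESeq2 1.42.0, limma-voom (limma 3.58.1) with and without sample quality weights, a replicate block, fits of only 2 groups, a threshold of 0.01, marker covariates, every library, and libraries left out. Another edgeR setting (legacy=FALSE) was added after the data were seen. Tables and plots used Python 3.11.15, pandas 2.3.3 and matplotlib 3.10.9.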

Additional observations from a re-analysis of the deposited data

Results flagged for a closer look

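In 51 groups of 4 or 5 libraries examined for a sample far from the others (chance gives about 1 in 20), 2 stood out. Srebf1 in obese replicate 5 was at 444.3 CPM, with the other obese libraries between 210.9 and 234.4 CPM. The gap was 0.899 of the group's range, against a critical value of 0.71. The same library was the highest obese one for 8 of the 10 genes, as for 22.62% of all genes, and, at 6088 CPM, the second in epididymis markers. Its part in the Srebf1 level was not tested. Mid1ip1 in obese replicate 4 was at 126.5 CPM, with the others between 41.7 and 64.1 CPM and a gap of 0.735 of the range. Obese replicate 4 was also among the 4 libraries highest in epididymis markers, at 2848 CPM, and the part of that tissue in the Mid1ip1 level was not tested.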

How the results depend on the processing

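In obese against lean fat, where 4 members and 9.71% of all genes passed, 2 passed with the adipocyte marker covariate (3.54% of all genes). Without the 4 libraries highest in epididymis markers, which leaves fewer samples, 2 passed (0.811%). With any 1 library left out 3 to 4 passed, with 5.61% to 11% of all genes. In weight loss against obese fat, 0 members and 1.62% of all genes passed. With library size only, DESeq2, limma-voom or the adipocyte covariate 1 passed, with 1.66%, 4.54%, 2.03% and 1.51% of all genes. With sample quality weights 2 passed (3.5% of all genes). With 1 library left out 0 to 1 passed, 1 without obese replicate 5 (1.01%) or lean replicate 1 (1.76%). In weight loss against lean fat, where 0 members and 0.0329% of all genes passed, 2 passed with DESeq2 (1.6% of all genes). With 1 library left out 0 to 1 passed, 1 without weight loss replicate 4 (0.843% of all genes). The cause of these shifts was not tested.

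Signs turned only for log2 fold changes that lay between -0.25 and 0.232 in the main fit and had not passed the test. In obese against lean fat, Me1 was 0.119 with the adipocyte covariate, 0.005 without lean replicate 2 and 0.032 without lean replicate 3 (-0.230 to 0.032 over single libraries left out), and Thrsp was 0.084 with the adipocyte covariate. In weight loss against obese fat, Acaca was -0.041 without the 4 epididymis-rich libraries and Srebf1 -0.024 with the adipocyte covariate. Thrsp was 0.016 with sample quality weights, 0.066 without obese replicate 5, and ran from -0.320 to 0.102 over single libraries left out (0.102 without weight loss replicate 1, 0.064 when replicate 3 of that group was left out). Srebf1 in obese against lean fat missed the threshold in 14 of 30 alternatives, and Acacb passed in all 30.

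With the replicate number as a block, 4, 0 and 0 members passed in the 3 comparisons in the order given, and 1618, 172 and 2 of all genes against 1477, 246 and 5 without it. The mean log2 CPM of each gene in its group was subtracted from each library. Correlations of these deviations between same-numbered libraries ran from -0.553 to 0.399. The labels state no pairing, though the sample titles list same-numbered libraries next to each other. So few correlations cannot decide whether these libraries share a block. The edgeR setting added later gave 4, 0 and 0. Weight loss replicate 5 gave no usable depth, and 4 or 5 libraries per group limit the precision.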
